A study of Bos taurus with 138 samples.

Results

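F-box proteins are the exchangeable substrate-binding subunits of SCF ubiquitin ligases. The members described here are the genes whose symbols begin with FBXL, FBXO or FBXW followed by a digit, leaving out FBXO5 and FBXO43, which are known as inhibitors of the anaphase promoting complex. By this rule 59 of the 16706 genes in the deposited table of bovine oocytes and preimplantation embryos were members, of which 18 were FBXL, 33 FBXO and 8 FBXW genes. In an SCF ligase the scaffold cullin CUL1 holds the RING protein RBX1, which recruits the ubiquitin-loaded enzyme, and the adaptor SKP1, which docks the F-box motif. The rest of the F-box protein binds the substrate, through leucine-rich repeats in FBXL proteins, WD40 repeats in FBXW proteins and various other domains in FBXO proteins. Ubiquitin ligases of this kind are known for timed protein destruction in the cell cycle, and destruction of maternal proteins is part of the passage from oocyte to embryo.

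The study fractionated lysates of Bos taurus oocytes and embryos on sucrose gradients and sequenced the RNA of every fraction, next to whole transcriptomes of the same batches. Germinal vesicle (GV) oocytes came from follicles of slaughterhouse ovaries, metaphase II (MII) oocytes were matured in vitro, and 2-cell, 8-cell, morula and blastocyst embryos were made by in vitro fertilization with semen of a single bull. No genotype or treatment separated the stages, all received cycloheximide, which holds ribosomes on mRNA, before lysis, and each library was made from many oocytes or embryos pooled together. Each stage had 2 gradients (A and B) of 10 fractions and 3 transcriptomes (A, B and C). The labels do not say that a letter ties a gradient to a transcriptome, and they name no batch or date. Here the counts of fractions F8 to F10 of a gradient, the polysome fractions, were summed into 1 polysome pool, which gave 12 pools beside 18 transcriptomes. Levels are given as CPM, a gene's counts relative to the library total after scaling by TMM factors, so they compare 1 gene between libraries, not 1 gene with another. In such bulk samples fewer cells of a type and less RNA per cell cannot be told apart.

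The pools held 22543733 to 39380640 counts and the transcriptomes 3269385 to 11812541, with the lowest totals in the blastocyst transcriptomes, so that 3 counts corresponded to 0.0762 to 0.133 CPM in a pool and 0.254 to 0.918 CPM in a transcriptome. The 8-cell and Morula pools stood apart from the rest. Over the members, log2 levels of the pools A and B correlated with r = 0.725 at the 8-cell stage and r = 0.785 in Morula, against 0.9497 to 0.965 for the GV, MII and 2-cell pools, 0.891 in Blastocyst and 0.924 to 0.992 between transcriptomes of 1 stage. Of the 58 members in the model, 11 had no count in 8-cell pool A but some in pool B, 2 had none in pool B alone and 4 had none in either. In Morula, 7 had no count in pool A alone, 2 in pool B alone and 7 in both. The 9 oocyte markers fixed for the check (GDF9, BMP15 and zona pellucida genes among them) summed to 18196 to 21183 CPM in GV transcriptomes and to 37.9 to 137 CPM in blastocysts, while 5 trophectoderm markers summed to 42.5 to 51.3 CPM in GV and 5088 to 5838 CPM in blastocysts. A set of 12 cumulus and granulosa cell markers summed to 531 to 675 CPM in GV, 506 to 602 in MII, 362 to 402 in 2-cell, 183 to 410 in 8-cell, 40.5 to 52.3 in Morula and 308 to 924 in Blastocyst transcriptomes, with STAR and HAS2 contributing most of it in the oocytes and FOXL2 at 0 in GV, MII, 2-cell and Blastocyst.

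Most members were detected at every stage, and most had their highest level before the 8-cell stage. In transcriptomes 49, 45, 49, 45, 43 and 45 of the 59 members had a mean of at least 1 CPM from GV to Blastocyst, and in polysome pools 53, 50, 54, 44, 44 and 45 did. Of the 58 members in the model, 10 had their highest transcriptome mean in GV, 7 in MII and 17 in 2-cell, against 6 in 8-cell, 7 in Morula and 11 in Blastocyst. In pools the stages of the highest mean were more unequal, with 10 members in GV, 13 in MII and 19 in 2-cell against 6 in 8-cell, 5 in Morula and 5 in Blastocyst. The median level over the members was 17.2, 18.2 and 23.3 CPM in GV, MII and 2-cell pools and 8.20, 7.31 and 7.42 CPM in the later ones, whereas in transcriptomes it stayed between 5.70 and 9.43 CPM. The stages of the highest mean and these medians are not given over all genes. Whether the pattern is particular to the members was not tested. FBXO39 alone was not carried into the model, with at most 0.207 CPM in any library.

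**Figure D1:**
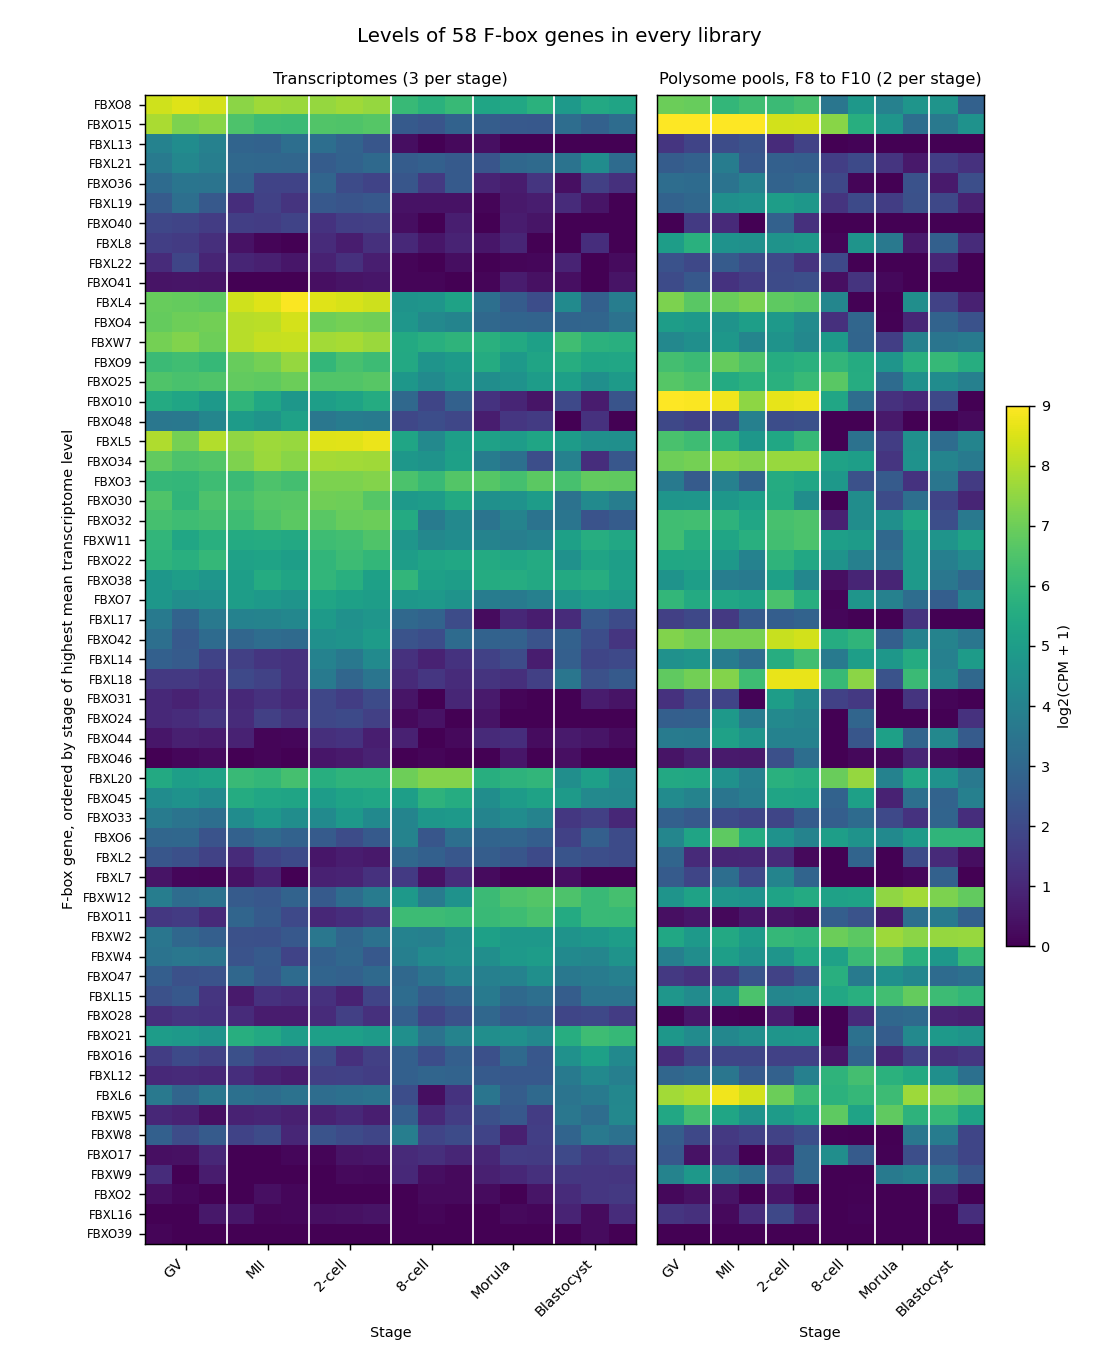
Levels of 58 members in each of the 30 libraries, as log2(CPM + 1) on the colour scale; columns are libraries in stage order, transcriptomes on the left and polysome pools on the right, and rows are members ordered by the stage of their highest mean transcriptome level. Rows such as FBXO15 and FBXO10 lose their colour from the 8-cell stage on, while FBXO11 gains it there.

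Some members were far higher in oocytes than after genome activation. A member was called maternal if both GV and MII exceeded each of 8-cell, Morula and Blastocyst more than 4-fold, with an adjusted p under 0.05 in all 6 comparisons by edgeR's quasi-likelihood test with Benjamini-Hochberg adjustment over all 14612 genes in the model. In transcriptomes 5 of 58 members met this (6.79% of all genes did): FBXL5, FBXL13, FBXO4, FBXO10 and FBXO15. In polysome pools 7 of 58 did (7.49% of all genes): FBXL4, FBXL13, FBXO4, FBXO10, FBXO15, FBXO40 and FBXO48. FBXL13, FBXO4, FBXO10 and FBXO15 met it in both (3.68% of all genes). These shares of members lie near those of all genes. Pools and transcriptomes shared a common estimate of the spread in this fit. When only the pools compared were fitted, 0 of the 7 pool calls remained. Fitting only the transcriptomes compared raised the count there. All 33 fixed genes of the SCF core and its regulators were tested, and 0 of them had the maternal call in transcriptomes.

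FBXL13, whose protein is known to act on centrosome proteins, was the 1 oocyte-restricted member, meaning a maternal call in transcriptomes together with a mean under 1 CPM in both Morula and Blastocyst (2.75% of all genes). Its transcriptome levels were 14.7, 19.996 and 14.5 CPM in GV, 6.41, 6.18 and 8.56 in MII, 8.44, 6.31 and 4.36 in 2-cell, 0.257, 0 and 0.174 in 8-cell, 0.2800, 0 and 0 in Morula and 0 in every Blastocyst library. No library up to the 2-cell stage overlapped with any later one. GV exceeded Blastocyst at least 72.3-fold, taking 3 counts over the group as the floor, and GV exceeded Morula by a ratio of 171 (95% counting interval 58.4 to 827), an interval that covers counting error of the lower group alone. In pools FBXL13 stood at 1.61 and 2.59 CPM in GV, 3.24 and 3.93 in MII and 1.14 and 2.400 in 2-cell, had 0 and 0.0542 in 8-cell and no count in Morula or Blastocyst. "Restricted" covers these 6 stages only. FBXL13 overlaps FAM185A, LRRC17 and ARMC10 in the RefSeq annotation by whole gene span, and exons were not compared. The libraries do not mark strand, and whether reads of these genes were counted for FBXL13 was not tested. The cumulus and granulosa sum was also lower in Morula than in oocytes but not lower in Blastocyst, where FBXL13 was at 0, and its part in the result was not tested. DESeq2 added FBXL19, as did leaving out Blastocyst transcriptome A. Fitting only the transcriptomes compared gave 3 oocyte-restricted members in place of 1.

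FBXO15, an F-box gene known as a marker of pluripotent cells in the mouse, was maternal in transcriptomes and in pools. Transcriptomes held 228, 149.5 and 169.6 CPM in GV, 88.8, 70.5 and 69.1 in MII, 94.3, 90.97 and 97.2 in 2-cell, 4.88, 4.12 and 6.09 in 8-cell, 5.32, 4.65 and 4.53 in Morula and 8.23, 6.01 and 8.003 in Blastocyst. The pools held 509.6 and 567, 794 and 803, 334 and 339.7, 166 and 48.4, 25.2 and 8.51 and 11.3 and 22.9 CPM at these stages. Oocyte and later libraries did not overlap on either side, and the log2 differences over the 6 comparisons ran from 3.36 to 5.24 in transcriptomes (highest adjusted p = 1.99e-07) and from 2.33 to 5.57 in pools. The maternal call in pools was lost without 8-cell pool B, and also when only the pools compared were fitted. The MII pools were the highest of all pools, while the GV transcriptomes were the highest of all transcriptomes.

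FBXO10, known to direct degradation of the anti-apoptotic protein BCL2, had pool levels of 569 and 493 CPM in GV, 449.7 and 178 in MII and 409 and 436 in 2-cell, then 38.8 and 8.404 in 8-cell, 1.45 and 1.04 in Morula and 2.87 and 0 in Blastocyst. Its transcriptomes went from 44.03, 38.04 and 28.4 CPM in GV and 32.3, 36.4 and 45.6 in 2-cell to 7.198, 2.69 and 5.91 in 8-cell, 1.49, 0.894 and 0.431 in Morula and 2.94, 0.622 and 4.002 in Blastocyst. Early and late libraries did not overlap. The log2 differences over the 6 comparisons were 2.80 to 5.44 in transcriptomes and 3.73 to 8.75 in pools, and with a limit of 5 CPM in place of 1 CPM FBXO10 joined FBXL13 as oocyte-restricted.

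FBXO4, known to target cyclin D1 and the telomere protein TERF1, went in transcriptomes from 263, 268 and 338 CPM in MII through 127, 137 and 132 in 2-cell and 25.5, 17.7 and 15.7 in 8-cell to 7.28, 6.44 and 6.36 in Morula, and the GV transcriptomes held 117, 128 and 136. Its pools held 31.5 and 27.7 CPM in GV, 23.6 and 32.04 in MII and 27.5 and 19.2 in 2-cell, against 1.39 and 6.86 in 8-cell, 0.0482 and 0.949 in Morula and 6.22 and 3.83 in Blastocyst. The oocyte levels were above all libraries from the 8-cell stage on. FBXL5, the iron-sensing F-box protein that controls iron regulatory protein IREB2, was maternal in transcriptomes, where its log2 differences were 2.50 to 3.11 (highest adjusted p = 0.0116). Its transcriptomes were at 242, 139 and 249.9 CPM in GV, 183, 204 and 194 in MII and 373, 389.9 and 425 in 2-cell, and at 38.4, 18.01 and 32.01 in 8-cell, 34.7, 30.5 and 37.8 in Morula and 29.99, 21.97 and 21.2 in Blastocyst. Pools of FBXL5 were less even, at 40.2 and 63.9 CPM in 2-cell, 0 and 9.43 in 8-cell and 2.12 and 21.97 in Morula, and 4 of the 6 pool comparisons passed (highest adjusted p = 0.138).

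For 3 members the maternal call was made in pools but not in transcriptomes, and it was lost when only the pools compared were fitted. FBXL4, known as a mitochondrial protein that restrains mitophagy, had 149 and 103 CPM in GV pools, 123 and 143 in MII and 107 and 101 in 2-cell, and 16.4 and 0.0271, 0 and 21.05 and 2.39 and 0.766 in the 3 later stages. Its transcriptomes held 119.95, 117 and 109 CPM in GV, 326, 377 and 492 in MII, 378, 347 and 315 in 2-cell, 23.4, 24.8 and 35.5 in 8-cell, 8.77, 5.096 and 3.34 in Morula and 18.8, 5.805 and 13.2 in Blastocyst, and 5 of the 6 transcriptome comparisons passed (highest adjusted p = 0.104). The pool call of FBXL4 was lost without GV pool A, MII pool B, 8-cell pool B or Morula pool A. FBXO48 had 2.99 and 14.1 CPM in MII pools, no count in 8-cell pools and 0.5301 and 0 CPM in Morula, and its transcriptomes went from 29.8, 24.1 and 34.5 CPM in MII to 2.74, 3.32 and 2.78 in 8-cell. FBXO40, known from muscle, had 2.81, 2.56 and 2.03 CPM in GV transcriptomes and 0 in all Blastocyst ones, and in pools it had counts only at GV, MII and 2-cell, with 0 in 1 of the pools of both GV and MII. Whether the oocyte excess of these 3 members differed between pools and transcriptomes was not tested.

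**Figure D2:**
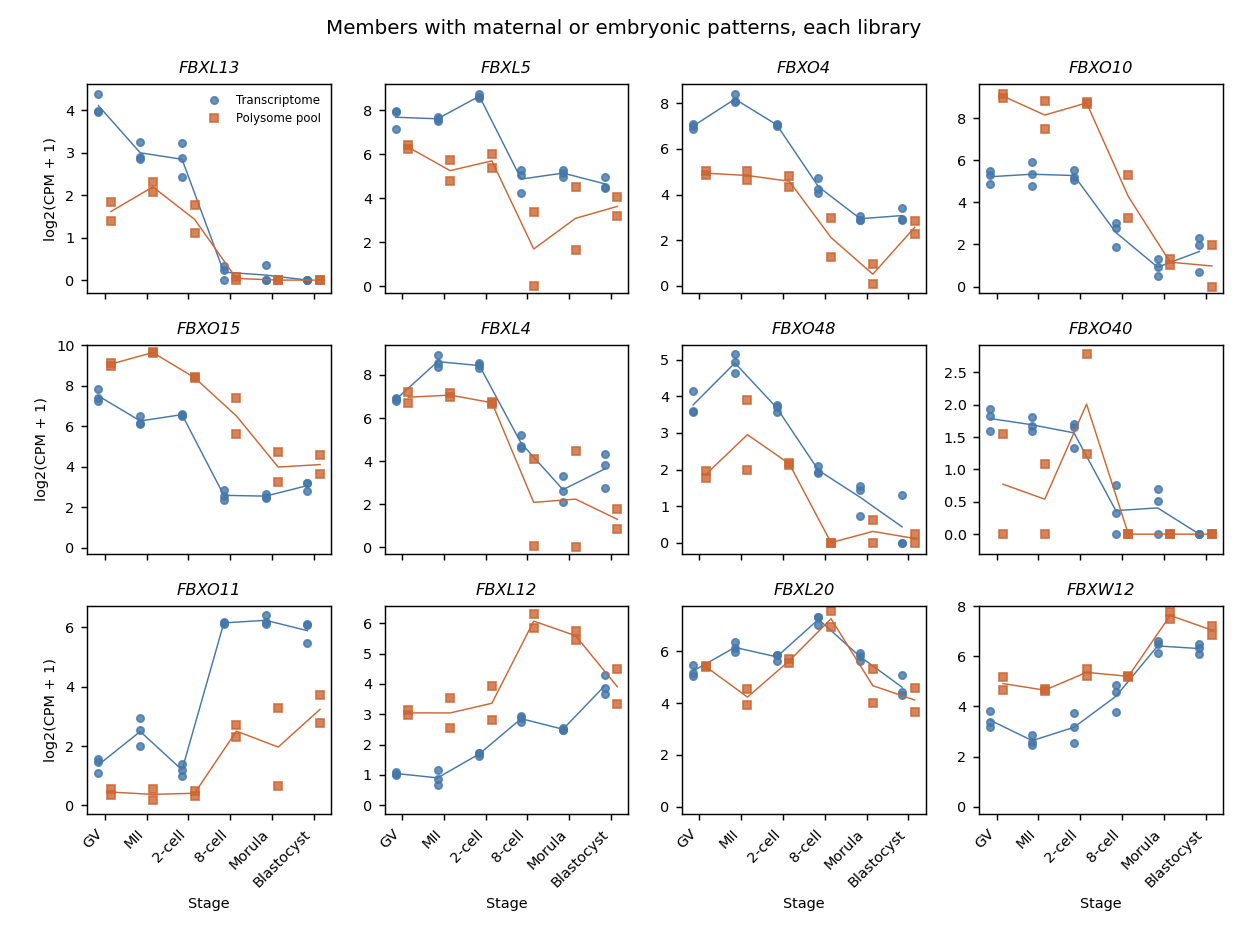
Levels of 12 members by stage as log2(CPM + 1), 1 panel per member; circles are transcriptomes, squares are polysome pools and lines join the mean of the log2 values. FBXL13, FBXO10, FBXO4 and FBXO15 fall between the 2-cell and 8-cell stages in both kinds of library, and FBXO11 and FBXL12 rise there.

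Fewer members showed the opposite pattern. FBXL12 and FBXO11 exceeded both oocyte stages more than 4-fold at all 3 later stages in transcriptomes (2 of 58, against 6.69% of all genes), and FBXO11 did so in pools (1 of 58, against 6.68%). FBXO11, known to target the transcription factor BCL6, had 1.75, 1.95 and 1.12 CPM in GV transcriptomes, 6.64, 4.87 and 2.97 in MII and 0.989, 1.28 and 1.65 in 2-cell, and then 70.4, 71.5 and 68.4 in 8-cell, 67.6, 72.4 and 84.6 in Morula and 43.8, 67.8 and 66.6 in Blastocyst. Its pools moved from 0.417 and 0.246 CPM in 2-cell to 5.496 and 3.96 in 8-cell, 0.578 and 8.68 in Morula and 12.1 and 5.79 in Blastocyst. FBXO11 overlaps MSH6 in the annotation. FBXL12, known to act on the kinase inhibitor CDKN1A, rose in transcriptomes from 2.28, 2.32 and 2.11 CPM in 2-cell to 5.74, 6.63 and 6.35 in 8-cell and 11.8, 18.5 and 13.6 in Blastocyst, while its pools were highest in 8-cell at 56.5 and 77.7 CPM against 6.004 and 14.1 in 2-cell and 21.4 and 9.07 in Blastocyst. FBXW12 reached its plateau later, with 4.87, 8.15 and 12.5 CPM in 2-cell transcriptomes, 28.02, 12.5 and 22.96 in 8-cell and 69.5, 89.5 and 95.2 in Morula, and pools of 34.9 and 36.6 CPM in 8-cell and 180.2 and 214 in Morula. FBXL20, known from synapses and autophagy, peaked at the 8-cell stage in both, at 129, 160.2 and 161 CPM in transcriptomes and 123 and 188 CPM in pools, above every library of every other stage.

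The comparison of polysome pools with transcriptomes of the same stage asked which members were more or less represented in polysomes than in total RNA. A member was called if the adjusted p was under 0.05 and the fold over 2. In GV 17 of 58 members were higher and 7 lower in pools (21.6% and 17.0% of all genes), in MII 20 and 12 (30.4% and 26.2%), in 2-cell 22 and 7 (28.5% and 21.3%), in 8-cell 19 and 15 (27.4% and 30.3%), in Morula 15 and 11 (25.9% and 24.5%), and in Blastocyst 11 and 11 (19.4% and 19.5%). Counting both directions, 24, 32, 29, 34, 26 and 22 members were called from GV to Blastocyst, against 38.6%, 56.6%, 49.8%, 57.7%, 50.4% and 38.9% of all genes. The shares of members were of the size of those of all genes, with the widest distance among members higher in 2-cell pools. The median log2 difference over the members was 0.18, 0.09, 0.50, -0.25, 0.07 and -0.25 from GV to Blastocyst, beside 0.00, 0.00, 0.18, -0.26, 0.00 and -0.08 over all genes. RLE scaling factors in place of TMM shifted the median of all genes by -0.17 in 2-cell, -0.24 in 8-cell, -0.11 in Morula and -0.15 in Blastocyst, so differences are given relative to the TMM scaling. DESeq2, which scales in that way too, gave 17 and 12 members in GV, 21 and 13 in 2-cell and 15 and 17 in Morula, and fitting the 8-cell libraries alone called 19 members in place of 34. Pools and transcriptomes also differ in how much RNA entered a library and in how many libraries were summed, and the part of this in the result was not tested.

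**Figure D3:**
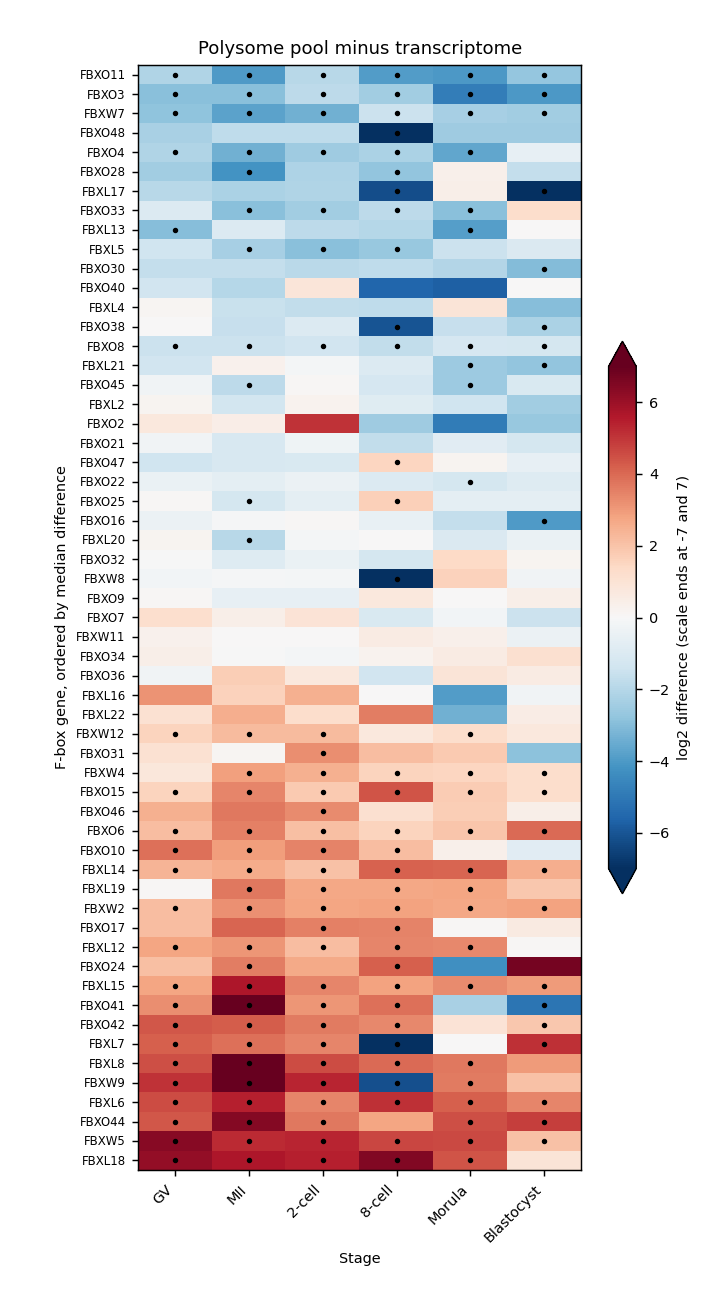
Log2 difference of polysome pool and transcriptome for 57 members in the model (rows) at the 6 stages (columns), on a colour scale ending at -7 and 7; a dot marks an adjusted p under 0.05 with a fold over 2. Members at the top are lower in pools at most stages, among them FBXO11, FBXO3 and FBXW7, and members at the bottom are higher, among them FBXL6, FBXO44, FBXW5 and FBXL18.

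Over the 6 stages 25 of 58 members were called higher in pools at 1 or more stages and 24 lower, beside 44.5% and 48.5% of all genes. By pattern, 21 members were called higher and never lower, 20 lower and never higher and 4 (FBXL7, FBXO25, FBXO41 and FBXW9) in both directions, while 13 were called at no stage. These patterns were not counted over all genes, and whether their sizes are particular to the members was not tested. At all 6 stages 7 of 58 members were higher (9.42% of all genes), namely FBXL6, FBXL14, FBXL15, FBXO6, FBXO15, FBXW2 and FBXW5, and 4 of 58 were lower (5.21% of all genes), namely FBXO3, FBXO8, FBXO11 and FBXW7. Both shares are close to those of all genes.

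Among the FBXW genes, FBXW5, known to restrain centriole duplication through SASS6, had 41.4 and 79.1 CPM in GV pools against 0.987, 0.8204 and 0.304 in GV transcriptomes. This was a log2 difference of 6.39 (SE 0.70, adjusted p = 1.09e-07), and the groups did not overlap at any stage. Blastocyst showed its smallest difference, with 64.6 and 36.3 CPM in pools and 10.9, 8.29 and 17.4 in transcriptomes. FBXW2, known to target the placental transcription factor GCM1, was higher in pools throughout, at 39.8 and 28.5 against 10.6, 6.97 and 5.58 CPM in GV and 192 and 193 against 23.5, 26.1 and 31.01 CPM in Blastocyst, where the log2 difference was 2.84 (SE 0.32, adjusted p = 3.02e-07). FBXW7, the F-box protein of cyclin E, MYC and Notch, showed the reverse. MII transcriptomes held 260.01, 297 and 302 CPM of it and MII pools 26.1 and 16.3, a log2 difference of -3.76 (SE 0.59, adjusted p = 9.06e-06). In GV the FBXW7 values were 137, 155 and 128 and 17.6 and 21.4 CPM, and in Blastocyst 74.97, 53.5 and 50.4 and 10.2 and 12.1 CPM, again without overlap. FBXW11, the close relative of BTRC that binds phosphorylated degrons such as those of beta-catenin and NFKBIA, was called at no stage, with 76.999 and 86.6 CPM in 2-cell pools and 72.04, 76.9 and 91.2 in 2-cell transcriptomes. FBXW4 was higher in pools from MII on, with 31.8 and 22.99 against 3.89, 4.87 and 2.498 CPM in MII.

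Of the FBXL genes, FBXL18 had the largest excess of pools over transcriptomes of any member called without overlap in 2-cell and 8-cell. Its pools held 111 and 133 CPM in GV and 413 and 416 in 2-cell, and its transcriptomes 1.82, 1.85 and 1.42 and 11.8, 6.79 and 10.38. The log2 differences were 6.16 (SE 0.77, adjusted p = 7.66e-07) in GV, 5.42 in 2-cell and 6.48 (SE 0.78, adjusted p = 2.64e-07) in 8-cell, and the member was called higher at every stage but Blastocyst. FBXL6 was higher in pools at all stages, from 213 and 242 against 11.5, 6.67 and 10.44 CPM in GV to 152 and 128 against 9.996, 12.2 and 16.8 CPM in Blastocyst, with its largest log2 difference of 5.46 (SE 0.56, adjusted p = 1.47e-08) in MII. FBXL14, known to target SNAI1, had 48.01 and 77.2 CPM in 2-cell pools and 14.99, 11.2 and 18.9 in 2-cell transcriptomes, its highest stage on both sides. FBXL15, known to act on the ubiquitin ligase SMURF1 of the BMP pathway, had 23.9 and 85.5 CPM in MII pools and 0.572, 1.42 and 1.19 in MII transcriptomes, and 76.1 and 115 against 12.04, 7.51 and 8.83 CPM in Morula. FBXL8 had 31.5 and 51.7 CPM in GV pools and 2.202, 1.95 and 1.32 in transcriptomes, but in 8-cell its pools were 0.08203 and 24.3 CPM and overlapped with the transcriptomes at 1.03, 0.448 and 0.8698. That 8-cell difference turned to -3.15 without 8-cell pool B.

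FBXL17, known for quality control of BTB protein dimers, had no count in Blastocyst pools against 1.18, 4.77 and 3.201 CPM in transcriptomes, at least 47.2-fold lower, and in 8-cell it had 0.123 and 0.0271 CPM against 7.198, 6.27 and 3.31. FBXL17 was detected in the pools of GV, MII and 2-cell. FBXL5 was lower in MII, 2-cell and 8-cell pools, with a log2 difference of -2.93 (SE 0.96, adjusted p = 0.0139) in 2-cell.

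The FBXO genes held the largest contrasts among themselves. FBXO15 pools exceeded transcriptomes at all stages, most in 8-cell, where the log2 difference was 4.41 (SE 0.43, adjusted p = 1.24e-08), and least in Blastocyst, where it was 1.21 and no longer passed with RLE factors. FBXO42, known to bind p53, had 156 and 135 CPM in GV pools and 8.81, 4.72 and 7.91 in transcriptomes, and 300.2 and 331 against 21.9, 23.4 and 30.01 CPM in 2-cell. FBXO10 was likewise higher in pools from GV to 8-cell and called at neither later stage, where its levels were low on both sides. FBXO6, which binds glycoproteins with high-mannose glycans, was higher in pools at every stage, up to 58.8 and 57.9 CPM against 2.35, 5.597 and 3.201 in Blastocyst. FBXO44, a relative of FBXO6, was higher in pools at all stages but 8-cell, with 34.3 and 24.5 against 0.801, 0.101 and 0.119 CPM in MII, and it overlaps FBXO2 in the annotation.

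Another 4 FBXO genes were low in pools at 5 or 6 stages. FBXO3 had 5.06 and 1.52 CPM in Morula pools and 97.99, 79.9 and 104 in Morula transcriptomes, a log2 difference of -4.85 (SE 0.77, adjusted p = 1.62e-05), and 12.03 and 4.97 against 62.6, 61.5 and 72.3 CPM in GV. FBXO8, known for its Sec7 domain and action on ARF6, had 126 and 119 against 326, 376 and 343 CPM in GV and 23.97 and 5.96 against 27.6, 42.5 and 37.02 in Blastocyst. The 8-cell values of FBXO11 were 5.496 and 3.96 CPM in pools and the 70.4, 71.5 and 68.4 CPM in transcriptomes given above, a log2 difference of -3.89 (SE 0.76, adjusted p = 1.39e-04). FBXO4 was lower at all stages but Blastocyst, and in MII its log2 difference was -3.38 (SE 0.61, adjusted p = 4.90e-05). None of these groups overlapped between pools and transcriptomes at the stages named. FBXO38, known to act on the checkpoint receptor PDCD1, was level with its transcriptomes in GV (23.6 and 31.6 against 26.04, 31.3 and 25.3 CPM). In MII its pools held 13.2 and 12.1 CPM against 32.2, 44.9 and 37.1 without overlap, a difference that did not pass the test, and in 8-cell pools it had 0.287 and 0.922 CPM against 59.5, 34.1 and 31.6, a log2 difference of -6.06 (SE 0.93, adjusted p = 7.60e-06). FBXO48 had no count in 8-cell pools against 2.74, 3.32 and 2.78 CPM in transcriptomes, at least 60.2-fold lower.

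Members called in both directions changed side at the 8-cell stage or later. FBXW9 had 15.2 and 27.1 CPM in GV pools and 11.8 and 8.55 in MII, where its transcriptomes had no count, so the MII pools were at least 91.5-fold higher. In 8-cell the pools had no count and the transcriptomes 1.03, 0.269 and 0.174 CPM, at least 10.01-fold lower, and in Morula the pools were at 11.7 and 14.1 CPM again. FBXL7, known to act on the mitotic kinase AURKA, had 15.7 and 6.55 CPM in 2-cell pools against 0.761, 0.879 and 1.43 in transcriptomes and no count in 8-cell pools against 1.89, 0.358 and 1.22 CPM. Its Blastocyst difference rested on pool A alone (5.96 and 0 CPM) and turned to -3.66 without it. FBXO25 was lower in MII pools, at 44.3 and 53.03 against 112, 108 and 126 CPM, and higher in 8-cell pools, at 102 and 46.6 against 25.9, 18.9 and 24.7 CPM. FBXO41 was at or under 1 CPM in all transcriptomes and had 3.13 and 4.51 CPM in GV pools. Its 1 lower call, in Blastocyst, rested on 0 counts in pools and 3 in transcriptomes, both at or under the floor, and its higher call in 8-cell turned to a log2 difference of -2.98 with F9 and F10 as the pool.

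Several members with well described roles were called at no stage. FBXO7, a gene of familial parkinsonism known for its part in mitophagy, had 60.5 and 44.4 CPM in GV pools against 26.5, 21.02 and 21.8 in transcriptomes and 0.08203 and 24.995 against 26.2, 28.3 and 23.9 in 8-cell, where its pools disagreed. FBXO32, the atrogin-1 of muscle atrophy, had 81.8 and 88.1 against 103, 118 and 124 CPM in 2-cell. FBXO9 and FBXO34 ran alongside their transcriptomes too, FBXO34 with 176 and 161 against 151, 199 and 169.7 CPM in MII. FBXO30, known from muscle as MUSA1, was called in Blastocyst, where pools held 2.52 and 0.894 CPM and transcriptomes 9.41, 18.7 and 13.2. FBXO31, known to act on cyclin D1, was called in 2-cell, where pools held 30.8 and 20.3 CPM and transcriptomes 2.81, 2.08 and 3.16, and this call was lost with RLE factors.

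Consecutive stages were then compared within transcriptomes and within pools, to follow when the members moved. These comparisons share their libraries, MII for example being the end of one and the start of the next. From GV to MII, 1 member rose and 5 fell in transcriptomes (6.61% and 10.5% of all genes, 17.1% in both directions). FBXO9, known for its part in mTOR regulation, rose from 69.2, 74.96 and 64.9 to 119.8, 139.6 and 191 CPM, a log2 change of 1.11 (SE 0.30, adjusted p = 0.00982). FBXO15 fell by 1.26 on the log2 scale, and FBXL15, FBXW4, FBXO41 and FBXW9 fell as well, the last from 1.21, 0 and 0.608 CPM to 0. With RLE factors 4 members rose and 5 fell. The count dropped to 3 without GV or MII transcriptome A and to 2 without MII transcriptome C, while fitting GV and MII alone gave 17. In pools 0 members were called from GV to MII by edgeR (3.03% and 2.33% of all genes, 5.37% in both directions). By the same test an unadjusted p under 0.05 was found for 7 of 58 members and for 2712 of the 14612 genes. The share of members was thus not above that of all genes. DESeq2 called 3 members, and its count over all genes is not given here.

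From MII to 2-cell, 5 members rose and 2 fell in transcriptomes (6.0% and 5.96% of all genes, 12% in both directions). FBXL14 rose from 2.29, 1.62 and 1.43 to 14.99, 11.2 and 18.9 CPM, a log2 change of 3.07 (SE 0.58, adjusted p = 7.45e-04). FBXL18, FBXO42 and FBXW2 also rose, by 2.08, 1.73 and 1.17 on the log2 scale, as did FBXO41, while FBXO11 fell by 1.88 and FBXO9 fell by 1.06. In pools 3 rose and 2 fell (3.37% and 5.14% of all genes, 8.51% in both directions). FBXL14 rose there too, from 12.9 and 8.403 to 48.01 and 77.2 CPM (2.56 (SE 0.68, adjusted p = 0.0192)), and FBXL20 rose as well, and FBXL6 and FBXO6 fell. These 5 pool calls became 3 without MII pool A, 1 without MII pool B or 2-cell pool A, and 0 without 2-cell pool B. The 7 transcriptome calls became 2 without 2-cell transcriptome A, 3 without 2-cell transcriptome C, MII transcriptome A or B, and 4 without MII transcriptome C.

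The largest movement was from 2-cell to 8-cell, the interval of major genome activation in cattle. In transcriptomes 8 members rose and 21 fell (26.6% and 23.5% of all genes, 50.1% in both directions), and in pools 4 rose and 26 fell (21.0% and 25.2% of all genes, 46.3% in both directions). The share of members that fell was above that of all genes on both sides, and the median log2 change was -1.10 over the members and 0.03 over all genes in transcriptomes, and -1.74 over the members and -0.26 over all genes in pools. Without either 2-cell pool or either 8-cell pool, 24 to 37 members were called in pools, and when 2-cell and 8-cell pools alone were fitted 4 were.

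In this interval FBXO11 had the largest rise, a log2 change of 5.74 (SE 0.71, adjusted p = 4.06e-07) in transcriptomes and 3.80 (SE 0.80, adjusted p = 5.40e-04) in pools. FBXL12 and FBXL20 rose on both sides as well, FBXL12 by 1.48 in transcriptomes and 2.74 in pools and FBXL20 by 1.47 and 1.68 on the log2 scale. FBXL2, FBXL15, FBXW4, FBXW5 and FBXW12 rose in transcriptomes, with FBXL2 going from 0.456, 0.639 and 0.526 to 7.198, 5.83 and 4.44 CPM and FBXL15 from 1.45, 0.799 and 2.63 to 8.05, 4.93 and 6.26 CPM. FBXO47, known from meiosis in the mouse, rose in pools from 2.39 and 4.03 to 50.2 and 11.9 CPM, and its transcriptomes, at 6.47, 5.995 and 7.45 and 7.28, 10.3 and 14.8 CPM, did not pass the test.

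More members fell than rose. FBXL13 fell in transcriptomes from 8.44, 6.31 and 4.36 to 0.257, 0 and 0.174 CPM, and FBXO15 by a log2 change of -4.22 (SE 0.42, adjusted p = 1.38e-08). FBXL5 and FBXL4 fell by 3.75 and 3.63 on the log2 scale in transcriptomes and by 3.45 and 3.67 in pools. FBXO34 went from 218, 212 and 209 to 26.4, 23.4 and 33.4 CPM in transcriptomes and from 193 and 196 to 34.98 and 31.7 in pools. FBXW7 and FBXW11 fell in transcriptomes, FBXW7 from 217, 228 and 201 to 43.7, 50.2 and 56.2 CPM and FBXW11 from 72.04, 76.9 and 91.2 to 25.5, 17.2 and 19.9 CPM. In pools FBXO10 fell by a log2 change of -4.16 (SE 0.95, adjusted p = 0.001095). FBXO38 fell from 33.3 and 16.9 to 0.287 and 0.922 CPM in pools, while its transcriptomes, at 60.3, 49.9 and 33.7 and 59.5, 34.1 and 31.6 CPM, did not pass the test. FBXL7, FBXW9, FBXO40 and FBXO48 had no count in either 8-cell pool, which was at least 227-fold, 89.8-fold, 74.0002-fold and 70.8-fold below 2-cell.

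**Figure D4:**
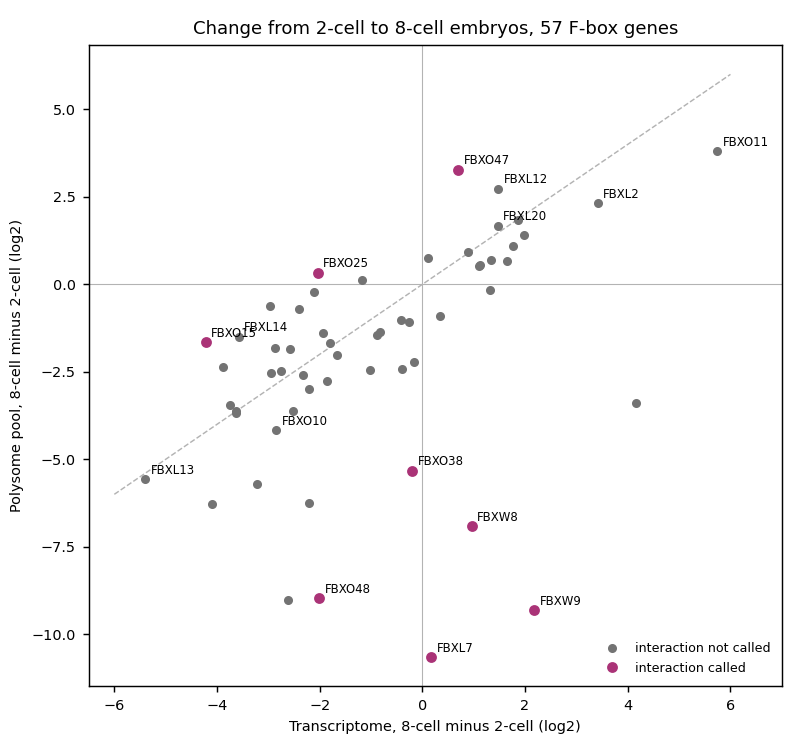
Log2 change from 2-cell to 8-cell of 57 members, in transcriptomes on the x axis and in polysome pools on the y axis; the dashed line marks equal change and purple points are members whose changes differed by the interaction test. FBXO11 lies far to the upper right, while FBXL7, FBXW8, FBXW9 and FBXO48 lie far below the line.

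Later intervals moved fewer members. From 8-cell to Morula, 2 rose and 4 fell in transcriptomes (6.6% and 7.75% of all genes, 14.4% in both directions): FBXL6 and FBXW12 rose, and FBXL17, FBXO10, FBXO4 and FBXL20 fell. FBXW12 rose by 2.00 on the log2 scale and FBXL20 fell by 1.47. The count was 3 without 8-cell transcriptome A or Morula transcriptome A or C. In pools 7 rose and 12 fell (18.5% and 17.7% of all genes, 36.2% in both directions), and in 8 of these 19 the 8-cell and Morula pools overlapped, among them FBXO3 (27.2 and 3.71 CPM in 8-cell and 5.06 and 1.52 in Morula) and FBXW8 (0.04101 and 0 and 0 and 10.8 CPM). Such overlaps were not counted over all genes. FBXW12 rose in pools without overlap, with a log2 change of 2.46 (SE 0.43, adjusted p = 1.29e-04), as did FBXO28, known from mitosis, from 0 and 1.14 to 6.94 and 7.68 CPM. Fitting the 8-cell and Morula pools alone called 0 members, and without Morula pool B the changes of FBXW8 and FBXL17 turned to -1.77 and -3.41.

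From Morula to Blastocyst, 6 members rose and 2 fell in transcriptomes (10.2% and 11.4% of all genes, 21.6% in both directions). FBXO16 rose from 3.64, 7.51 and 4.42 to 22.3, 33.6 and 18.2 CPM, FBXW11 from 15.4, 13.5 and 14.9 to 33.5, 47.5 and 41.2 and FBXW5 from 3.55, 4.56 and 2.05 to 10.9, 8.29 and 17.4, and FBXL12 and FBXL18 rose as well. FBXO33, known to target the cold shock protein YBX1, fell from 15.9, 19.8 and 15.4 to 1.76, 2.28 and 1.0004 CPM, a log2 change of -3.34 (SE 0.58, adjusted p = 1.49e-04), and FBXL20 fell by 1.17. The count was 4 without Morula transcriptome C and 5 without Blastocyst transcriptome C. In pools 2 rose and 2 fell (5.79% and 8.13% of all genes, 13.9% in both directions), among which FBXO4 went from 0.0482 and 0.949 to 6.22 and 3.83 CPM, FBXL12 from 52.3 and 42.7 to 21.4 and 9.07 CPM and FBXL17 from 0 and 1.58 CPM to no count. This count was 12 without Morula pool B and 7 without Morula pool A or Blastocyst pool A.

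Whether pools and transcriptomes changed by different amounts was tested with an interaction term, here the log2 change in pools minus that in transcriptomes. From GV to MII it was called higher for 4 members and lower for 1 (7.14% and 3.49% of all genes). FBXO15 had 228, 149.5 and 169.6 CPM in GV transcriptomes against 88.8, 70.5 and 69.1 in MII, while its pools had 509.6 and 567 and 794 and 803, and the changes differed by 1.83 (SE 0.57, adjusted p = 0.0403). The FBXL19 transcriptomes went from 4.93, 8.82 and 4.76 to 1.26, 2.33 and 1.55 CPM and its pools from 6.18 and 7.11 to 21.6 and 22.9 CPM, a difference of 3.59 (SE 1.10, adjusted p = 0.0368). FBXL15 and FBXW4 showed the same sign, with 2.92 and 2.10. FBXL20 showed the other, its transcriptomes going from 43.7, 32.4 and 35.1 to 68.1, 61.9 and 81.1 CPM and its pools from 41.7 and 41.4 to 22.4 and 14.02, a difference of -2.12 (SE 0.53, adjusted p = 0.0105). Leaving out any 1 library of GV or MII left 1 to 4 of these 5 calls, and FBXO15 lost its call with RLE factors.

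From MII to 2-cell the interaction was called higher for 1 of 58 members and lower for 0 (0.725% and 1.08% of all genes), with 0 calls when either pool of MII or of 2-cell was left out. From 2-cell to 8-cell 3 members were called higher and 6 lower (3.44% and 8.71% of all genes). FBXO15, FBXO25 and FBXO47 fell less or rose more in pools than in transcriptomes, with differences of 2.57, 2.38 and 2.57. FBXO38, FBXO48, FBXL7, FBXW8 and FBXW9 moved the other way, and for the last 4 the 8-cell pools held no more than 1 count, so the fitted value depends on the prior count. Without 8-cell pool B the count was 22. From 8-cell to Morula 5 were called in each direction (7.04% and 5.41% of all genes), a count that became 20 without 8-cell pool B and 16 without Morula pool B. From Morula to Blastocyst 3 were called higher and 4 lower (6.03% and 6.23% of all genes), and 11 without Morula pool B. FBXL12 and FBXW5 fell behind their transcriptomes there, by -3.28 (SE 0.70, adjusted p = 0.00387) and -2.57 (SE 0.85, adjusted p = 0.0488).

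The position of members within the gradient gave a further measure, the share of a member's summed level in F3 to F10 that lay in F8 to F10, taken for members with at least 100 counts in each gradient. Each fraction library was scaled to its own total, so the amount of RNA in a fraction is not kept. The share is therefore relative and a description only, and it is not the portion of a member's mRNA on polysomes. The median over the members was 35.7% in GV (54 members), 36.9% in MII (50), 39.8% in 2-cell (53), 31.7% in 8-cell (42), 28.8% in Morula (38) and 33.7% in Blastocyst (42), and over all genes 36.3%, 35.02%, 37.0%, 36.9%, 36.2% and 41.0%. Gradients A and B differed for the same member by a median of 10.95, 10.9, 6.59, 16.6, 19.01 and 16.7 percentage points; whether the members' median differed from that of all genes was not tested. FBXW7 had 56.8% and 43.2% in the GV gradients and 44.1% and 37.5% in MII, and FBXO15 49.5% and 44.5% in GV and 39.3% and 40.03% in MII. FBXL18 had 28.3% and 39.4% in GV and 55.4% and 53.3% in 2-cell. The lowest GV and MII shares were those of FBXO31, with 6.59% and 4.25% and 12.7% and 0.242%, and in 2-cell it had 43.9% and 35.8%. FBXO11 had 71.1% and 63.5% in 8-cell, the highest share there, although its pools were lower than its transcriptomes at that stage. The highest GV share was that of FBXL13, at a mean of 59.6%, and FBXL13 too was called lower in GV pools than in transcriptomes. FBXW7 was called lower in pools at all 6 stages.

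**Figure D5:**
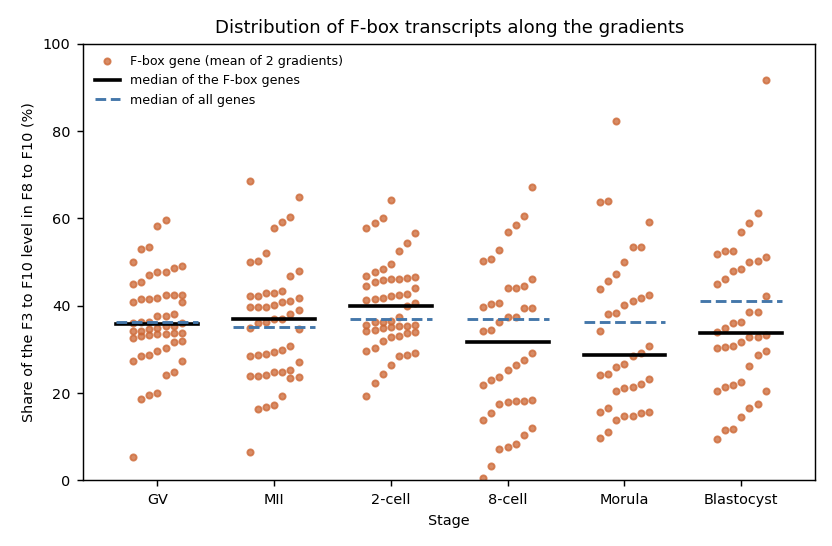
Share of the F3 to F10 level found in F8 to F10, in percent, for each member with at least 100 counts in both gradients, by stage, with each fraction library scaled to its own total; points are means of gradients A and B, the black line is the median over the members and the blue dashed line the median over all genes. Both medians lie between 28.8% and 41.0% at all stages, and the members spread most widely from the 8-cell stage on.

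Further members are given here by their levels and calls. FBXO45, known to work with the ligase MYCBP2 rather than CUL1, had 32.2, 55.9 and 47.1 CPM in 8-cell transcriptomes and was lower in MII and Morula pools, at 10.41 and 12.9 against 45.2, 39.5 and 37.6 CPM in MII. FBXO22 was lower in Morula pools, at 8.82 and 28.1 against 44.6, 39.3 and 44.6 CPM, and FBXO21 was called at no stage, with 47.6, 72.4 and 63.6 CPM in Blastocyst transcriptomes and 28.1 and 24.3 in pools. FBXL21 had 11.6, 16.8 and 13.3 CPM in GV transcriptomes and was lower in pools in Morula and Blastocyst. FBXW8, known to pair with CUL7, had 13.3, 2.599 and 3.13 CPM in 8-cell transcriptomes and 1 count over both 8-cell pools, a ratio of 388 (95% counting interval 69.7 to 15337) that covers counting error of the lower group alone. FBXO24 had 27.6 and 12.02 CPM in MII pools against 1.14, 2.23 and 1.55 in transcriptomes, and its 8-cell call, on pools of 0 and 6.61 CPM, turned to -4.67 without 8-cell pool B. FBXO46 was seen mainly in 2-cell pools, at 3.64 and 8.58 CPM against 0.456, 0.5595 and 0.827 in transcriptomes. FBXO16, FBXO17, FBXO36, FBXL16, FBXL22 and FBXO2 stayed under 35 CPM in every library, and FBXO2, a brain glycoprotein-binding member, under 2 CPM.

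The other subunits were described from lists fixed with the members. Of 33 SCF core and regulator genes, pools were higher for 3 and lower for 16 in GV, and 8 and 18 in MII, 7 and 17 in 2-cell, 6 and 15 in 8-cell, 9 and 12 in Morula and 6 and 14 in Blastocyst. Over all genes the shares higher and lower were 21.6% and 17.0%, 30.4% and 26.2%, 28.5% and 21.3%, 27.4% and 30.3%, 25.9% and 24.5%, and 19.4% and 19.5% at these stages. The median log2 difference of the 33 genes was -1.07, -1.60, -1.31, -1.48, -0.60 and -1.04, beside 0.00, 0.00, 0.18, -0.26, 0.00 and -0.08 over all genes. The adaptor SKP1 had means of 1244, 2584, 860.4, 4275, 3229.8 and 147 CPM in transcriptomes from GV to Blastocyst and 214, 326, 101, 930.2, 876 and 413 CPM in pools. It was lower in pools at the first 5 stages and higher in Blastocyst, where its transcriptomes had fallen by 4.45 on the log2 scale from Morula. The scaffold CUL1 rose from 2-cell to 8-cell, from 8.97 to 78.6 CPM in transcriptomes (3.13 (SE 0.45, adjusted p = 3.53e-06)) and from 0.891 to 55.6 CPM in pools (5.95 (SE 0.63, adjusted p = 1.01e-07)), the interval in which more members fell than rose. RBX1 was higher in pools in MII, 2-cell, Morula and Blastocyst, by 1.65, 1.40, 1.01 and 1.84. Of the F-box genes with other symbols, 6 were tested, of which 1, LMO7, had the maternal call in transcriptomes. BTRC and SKP2, the F-box proteins of beta-catenin and of the kinase inhibitor CDKN1B, fell from 2-cell to 8-cell by 2.45 and by 3.55 on the log2 scale in transcriptomes. CCNF, the cyclin F that restrains centrosome reduplication, was higher in pools at all 6 stages, by 2.77 in Blastocyst to 6.44 in MII. Among 22 known substrates tested, 2 had the maternal call in transcriptomes, NFKBIA and WEE2, where 6.79% of all genes did.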

How the data were processed

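The 2 gradients of 10 fractions and 3 transcriptomes of each of the 6 stages gave 138 libraries, made with Smart-seq v4 and Nextera XT, which do not keep strand. The authors quantified reads with Salmon and deposited expected counts for 16706 gene symbols. Of these, 11.7% of all values and 14.9% of the members' values were not whole. Salmon's version is not given in the sources used here, and they name 2 genome builds, UMD3.1 in the submitters' processing notes and a later one in the methods, so no coordinate is printed. All columns were mapped to samples, and no 2 libraries of a group held identical values.

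Here the expected counts of F8 to F10 were summed for each gradient and rounded. A quasi-likelihood model was fitted with edgeR 4.0.16 (R 4.3.3) to 30 libraries in 12 groups with TMM factors, after filterByExpr kept 14612 genes and 58 members. Pools and transcriptomes shared a common estimate of the spread in this fit, because pools have only 2 gradients a stage. The p-values of pool comparisons therefore do not rest on the spread between gradients alone. P-values were adjusted by Benjamini-Hochberg over all these genes, and a call needed an adjusted p under 0.05 and a fold over 2 (over 4 for maternal calls). Folds against a group without counts take 3 counts over the group as the floor. Floors and intervals cover counting error only, since reads without molecular identifiers are not independent molecules. The design calls the gradients biological duplicates and the transcriptomes biological triplicates. The code was tested on simulated data drawn from the real means.

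Alternatives were a likelihood ratio test, RLE factors, no filter, F9 and F10 as the pool, equal weight of fractions, a replicate block, only the groups compared, DESeq2 1.42.0 and each library left out. Genes named were members with the maternal call in transcriptomes, up to 5 called members per direction and comparison with the largest fold without overlap, 10 members and 6 pathway genes with described roles, and further members. Values of 1 member are not reported here, and the counts and medians over the members include it. Members and lists were chosen with earlier results of these data known. RefSeq gene tables, of another assembly, gave neighbours by symbol for 58 members (not FBXW12), of which 23 overlap another gene and 14 a protein-coding one by whole gene span. Fractions F1 and F2 were not used here. Tables and figures were made with Python 3.11.15, pandas 2.3.3 and matplotlib 3.10.9.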

Additional observations from a re-analysis of the deposited data

Results flagged for a closer look

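For 28 combinations of a member and an interval, the log2 change in polysome pools differed from that in transcriptomes by the interaction test (edgeR, adjusted p under 0.05 over all genes and fold over 2). Values are the change in pools minus the change in transcriptomes. From GV to MII the values were -2.12 for FBXL20, 1.83 for FBXO15, 2.10 for FBXW4, 2.92 for FBXL15 and 3.59 for FBXL19.

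From 2-cell to 8-cell the values were -5.13 for FBXO38, and 2.38 for FBXO25 and 2.57 for both FBXO15 and FBXO47. FBXO48 at -6.96, FBXW8 at -7.87, FBXL7 at -10.82 and FBXW9 at -11.49 had at most 1 count over the 8-cell pools, so their size depends on the prior count and only their direction can be read.

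From 8-cell to Morula the values were -2.39 for FBXO25, -2.44 for FBXO42 and -2.62 for FBXO15, and 4.45 for FBXO38. Members with 3 or fewer counts in the pools of 1 of these stages were FBXO41 at -6.12, FBXO48 at 6.25, FBXW8 at 9.61 and FBXW9 at 9.79, and FBXL17 at 6.59 had 0.123 and 0.0271 CPM in 8-cell pools. The value of FBXO41 turned to 1.18 with F9 and F10 as the pool, and that of FBXL17 to -0.23 without Morula pool B. From Morula to Blastocyst the values were -2.57 for FBXW5, -3.28 for FBXL12 and -3.48 for FBXL18, and 3.04 for FBXO4 and 4.17 for FBXO33. FBXL17 at -9.21 had no count in Blastocyst pools.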

How the results depend on the processing

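For 45 members named by the rules above, 287 called comparisons had 3768 alternatives. Of these, 3263 kept their direction and call, 495 lost the call in the same direction and 10 reversed. Most of the 45 were named for large folds without overlap between libraries, so these counts do not stand for all members. With the likelihood ratio test 287 kept both, with RLE factors 280, with no filter 275, and with the replicate block 260. DESeq2 kept 283 and lost 2, and equal weight of fractions kept 231 and lost 4. With only the groups compared 199 kept both and 68 lost the call. With F9 and F10 as the pool 178 kept both, 53 lost the call and 4 reversed. Over the fits with 1 library left out 1270 kept both, 322 lost the call and 6 reversed. The reversals were FBXL8 in Morula pools against transcriptomes (-0.17), and FBXO41 in 8-cell (-2.98), in pools from 8-cell to Morula (3.60) and in their interaction (1.18), all with F9 and F10 as the pool, and with 1 library left out FBXL8 (-3.15 to 4.94 over the libraries) and FBXO24 (-4.67 to 5.18) in 8-cell, FBXL7 in Blastocyst (-3.66 to 8.79), and from 8-cell to Morula FBXW8 in pools (-1.77 to 9.596) and FBXL17 in pools (-3.41 to 4.59) and in the interaction (-0.23 to 7.78). The cause was not tested.

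Counts of called members moved most where the fit held only the groups compared, with the spread estimated from those groups alone: pools against transcriptomes in 8-cell 34 to 19; transcriptomes GV to MII 6 to 17, MII to 2-cell 7 to 15, 8-cell to Morula 6 to 10 and Morula to Blastocyst 8 to 14; pools MII to 2-cell 5 to 0, 2-cell to 8-cell 30 to 4, 8-cell to Morula 19 to 0 and Morula to Blastocyst 4 to 0; interaction GV to MII 5 to 16, MII to 2-cell 1 to 5, 8-cell to Morula 10 to 1 and Morula to Blastocyst 7 to 4; maternal calls 5 to 8 in transcriptomes and 7 to 0 in pools, and oocyte-restricted members 1 to 3. In the intervals listed, counts rose in transcriptomes and fell in pools, and the cause was not tested. The likelihood ratio test gave 10 for transcriptomes GV to MII, 10 for pools MII to 2-cell, 9 for pools Morula to Blastocyst and 2 for the interaction MII to 2-cell. DESeq2 gave 12 for transcriptomes GV to MII, 3 for pools GV to MII, 11 for pools MII to 2-cell, 10 for pools Morula to Blastocyst, 8 and 3 for the interactions GV to MII and MII to 2-cell, and 2 oocyte-restricted members, as did the limit of 5 CPM. With F9 and F10 as the pool the counts were 0 for pools MII to 2-cell, and 2, 0 and 3 for the interactions GV to MII, MII to 2-cell and Morula to Blastocyst. The interaction MII to 2-cell was 0 with no filter and 0 with the replicate block, which moved no other count by over 1.5 times. Without TMM factors the median gradient share was 38.7% in GV and 40.1% in 2-cell. Counts of all genes under the alternatives are not given here. Whether the calls of members moved more than those of other genes was not tested.

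Leaving out 1 library gave ranges, for pools against transcriptomes, of 17 to 22 in GV, 27 to 31 in MII, 20 to 24 in 2-cell, 30 to 38 in 8-cell, 24 to 35 in Morula and 17 to 22 in Blastocyst. Over the 5 intervals in order the ranges were 2 to 7, 2 to 5, 24 to 28, 3 to 6 and 4 to 8 in transcriptomes, 0 to 0, 0 to 3, 24 to 37, 19 to 25 and 4 to 12 in pools, and 1 to 4, 0 to 1, 7 to 22, 8 to 20 and 5 to 11 for the interaction. The maternal calls ranged from 5 to 6 in transcriptomes and 5 to 7 in pools, and the oocyte-restricted members from 1 to 2. Of 12 correlations between the deviations of a pool and a transcriptome of 1 stage and letter, from -0.0687 to 0.0355, 0 were over 0.1. Of 15 between pools of 1 letter, from -0.100 to 0.0509, 0 were over 0.1. Of 45 between transcriptomes of 1 letter, from -0.345 to 0.138, 4 were over 0.1. The lowest were -0.345 for letter C and -0.240 for letter A, both between MII and 2-cell. No positive correlation was above 0.138, so the letters were not taken as pairs. RLE factors or DESeq2 shifted the median change of all genes by 0.12 for transcriptomes GV to MII, -0.13 for transcriptomes 8-cell to Morula and -0.16 for pools 2-cell to 8-cell. Members at 3 or fewer counts, 9 in 8-cell pools and 9 in Morula pools, are limited by depth, and so are low members in the blastocyst transcriptomes.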
